A study of Homo sapiens with 6 samples.

Results

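The cyclin-dependent kinase (CDK) inhibitors and the RB family are 10 genes, chosen by name: the CIP/KIP inhibitors CDKN1A, CDKN1B and CDKN1C, the INK4 inhibitors CDKN2A, CDKN2B, CDKN2C and CDKN2D, and the pocket protein genes RB1, RBL1 and RBL2. All 10 were among the 58051 genes of the count tables, and 8 of them were among the 20536 genes with at least 10 reads summed over the 6 libraries, which were tested. CDKN2A and CDKN2B had no read in any library. The RNA came from A172, an established human glioblastoma cell line grown in medium with serum. The cells of both groups carried a stably integrated lentiviral construct from the pLX317 vector, which expressed GFP in the 3 control libraries and the RNA-binding protein RBFOX1 in the other 3. The study describes these as biological replicates, and whether the infections were separate is not stated in the labels, so p-values measure the spread between these libraries. The comparison asked how RNA levels changed in glioblastoma cells that were made to express RBFOX1.

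CDK inhibitors are small proteins that bind cyclin-CDK complexes or the free kinase. INK4 proteins bind CDK4 and CDK6 and keep them from pairing with D-type cyclins, whereas CIP/KIP proteins bind a wider range of complexes, those of CDK2 above all. When these kinases are held back, RB1 and its relatives stay bound to E2F transcription factors and keep the genes for DNA replication and mitosis repressed, and the CDKN2A and CDKN2B locus is among the most frequently deleted in glioblastoma.

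RBFOX1 binds the RNA hexamer UGCAUG, written TGCATG in the DNA alphabet. Within the 3′ UTR of the canonical GENCODE release 44 transcript, 4 of the 10 genes held this hexamer, namely CDKN1B, CDKN2D, RB1 and RBL2. Of 14049 tested protein-coding genes with such a 3′ UTR, 36.5% held at least 1 TGCATG. The sites are shown because RBFOX1 was the factor expressed here, and each is given 5′ to 3′ on the transcribed strand, with the hexamer in capitals and up to 12 bases on either side.
CDKN1B site 1: aaatatttgactTGCATGaagagaagcaat
CDKN1B site 2: ttgttagatagcTGCATGtggcttttttaa
CDKN2D: aattaagacttgTGCATGatcaca
RB1: catcattgtttcTGCATGaatatcatacaa
RBL2: agggctgtaaaaTGCATGattttgtaaccc
On GRCh38 the hexamers of CDKN1B lay at chr12:12721413-12721418 and chr12:12721622-12721627 on the plus strand, at bases 386 and 595 of a 3′ UTR of 1342 bases. The CDKN2D hexamer lay at chr19:10566466-10566471 on the minus strand, at base 587 of 598, so that the transcript ended before the flank did. The RB1 hexamer lay at chr13:48481622-48481627 (base 1551 of 1819) and the RBL2 hexamer at chr16:53490953-53490958 (base 653 of 1348), both on the plus strand. The 3′ UTRs of CDKN1A (1532 bases), CDKN1C (703 bases), CDKN2A (477 bases), CDKN2B (3084 bases), CDKN2C (364 bases) and RBL1 (2410 bases) held no TGCATG. A match to these letters is a description of the sequence and not a measured binding site.

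The libraries held between 7433414 and 23249221 reads assigned to genes. RBFOX1 had 4, 0 and 1 reads in the GFP libraries and 10276, 16467 and 21451 reads in the RBFOX1 libraries, as labelled. The values below are normalized counts, meaning reads divided by each library's TMM-scaled size relative to the mean of the 6. Of the 8 glioblastoma and glial markers, 6 had a mean above 10, with VIM and CD44 the most abundant, while GFAP had at most 4 reads and S100B at most 2 in any library. The summed level of this list was 78730 to 80040 in GFP cells and 52760 to 53330 in RBFOX1 cells, most of it VIM and CD44. Of its 7 tested markers, 2 were higher (SOX2 at a log2 fold change of 2.53 and NES at 0.60), 3 lower (VIM, CD44 and OLIG2) and 2 not passed. Markers of other cell types were higher in RBFOX1 cells in sum. Higher by the edgeR test were 1 of 3 neuron, 1 of 3 immune, 3 of 3 endothelial and 2 of 3 epithelial markers. The shares over all genes tested were 23.7% higher and 22.9% lower. The 3 neuron markers summed to 12.6 to 15.2 against 29.0 to 44.4 (RBFOX3 and SNAP25 had at most 3 reads in a library). The 3 immune markers summed to 14.01 to 32.8 against 50.8 to 71.1. Of these PTPRC rose by 1.82 on the log2 scale, CD14 had -0.90 and did not pass, and CD3E had no read. The 3 endothelial markers summed to 10.3 to 12.9 against 95.9 to 109. The 3 epithelial markers, nearly all KRT8, summed to 2508 to 2560 against 7794 to 8164. The part of these other cell types in the results was not tested. In such bulk samples fewer cells of a type and less RNA per cell cannot be told apart.

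Among the 8 tested members, 5 were higher and 2 lower in RBFOX1 cells (edgeR's quasi-likelihood test, Benjamini-Hochberg adjusted p under 0.05 over all genes tested). CDKN2C rose the most, followed by CDKN1B, CDKN1C, CDKN2D and RB1, whereas CDKN1A and RBL1 fell and RBL2 did not pass. Of all genes tested, 23.7% were higher and 22.9% lower. In all 8 tested members the values of the GFP and the RBFOX1 libraries did not overlap, which held for 53.4% of all genes tested.

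**Figure D1:**
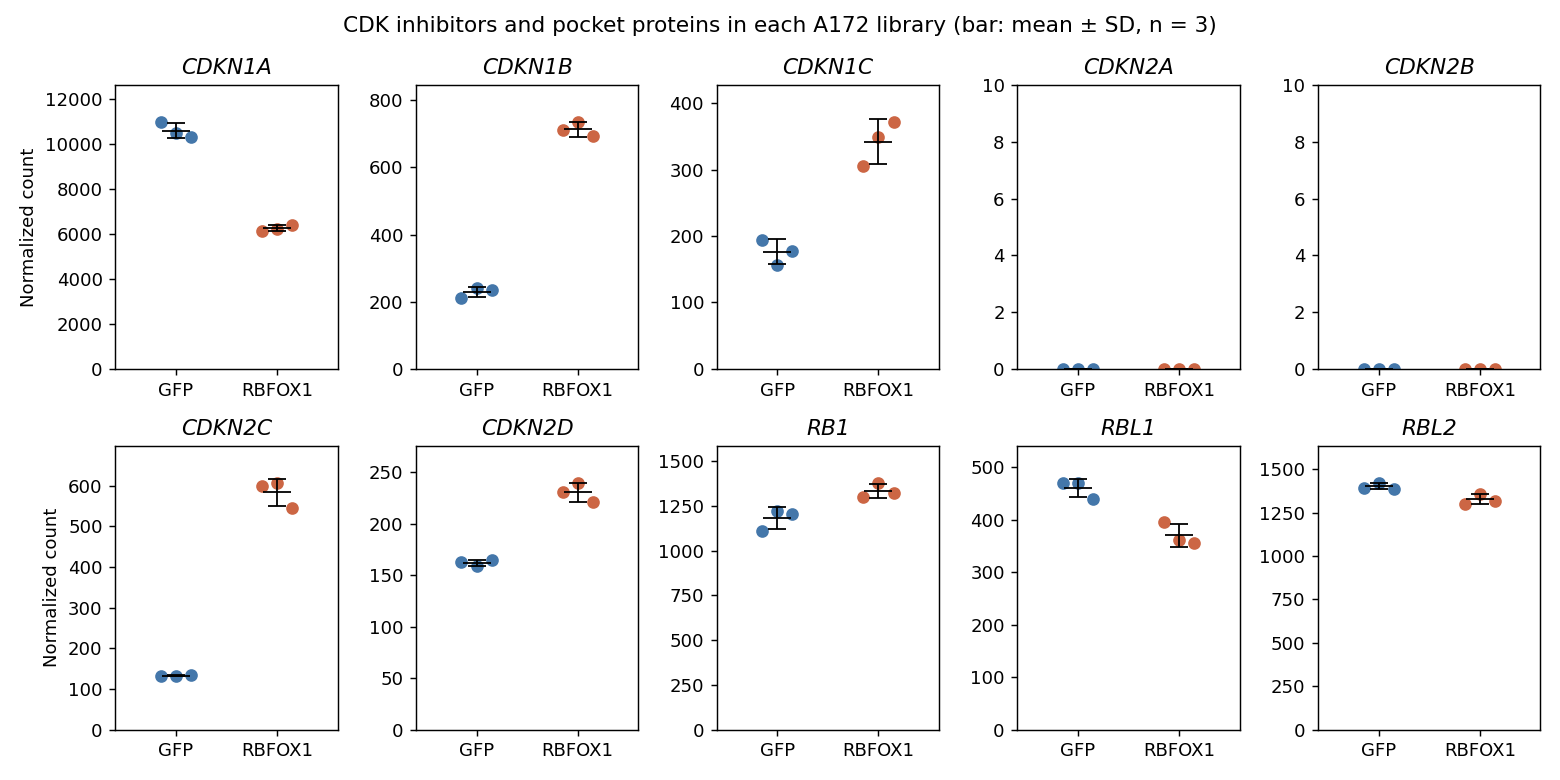
Normalized count of each gene (y axis, linear and from 0, with its own scale per gene) in the 3 GFP and 3 RBFOX1 libraries, with points for libraries and bars for the mean ± SD. CDKN2C rose from 133 to 584 and CDKN1A fell from 10600 to 6252, while CDKN2A and CDKN2B sat at 0 in every library.

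The CIP/KIP genes moved in opposite directions. CDKN1A (chr6:36676460-36687337, plus strand), which encodes p21, an inhibitor induced by DNA damage, had 10990, 10490 and 10330 normalized counts in GFP cells and 6131, 6231 and 6396 in RBFOX1 cells. Every RBFOX1 library lay below every GFP library. The mean fell from 10600 ± 345 to 6252 ± 134 (SD, n = 3 in each group). It was 1.70-fold lower, with -0.76 as the log2 fold change (SE 0.047, edgeR adjusted p = 4.67e-11).

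CDKN1B (chr12:12685498-12722369, plus strand), which encodes p27, an inhibitor of CDK2 complexes that marks resting cells, had 211, 239 and 234 normalized counts in GFP cells and 711, 735 and 692 in RBFOX1 cells. The groups were far apart. Its 3′ UTR held 2 TGCATG hexamers, and whether they bear on the level was not tested. The mean rose from 228 ± 15.3 to 713 ± 21.5, which was 3.15-fold higher (log2 fold change 1.66, SE 0.075, edgeR adjusted p = 4.14e-13).

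CDKN1C (chr11:2883213-2885775, minus strand), which encodes p57, an imprinted inhibitor, had 194, 157 and 178 normalized counts in GFP cells and 305, 349 and 372 in RBFOX1 cells. It was the most variable member in both groups, with a coefficient of variation of 10.75% in GFP and 9.95% in RBFOX1 libraries, and the groups still did not overlap. Its mean rose from 176 ± 19.0 to 342 ± 34.0, or 1.93-fold (log2 fold change 0.95, SE 0.098, edgeR adjusted p = 9.52e-08).

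Of the INK4 genes, 2 of 4 were detected and both rose. CDKN2C (chr1:50960745-50974634, plus strand), which encodes p18, an inhibitor of CDK4 and CDK6, had 132, 132 and 135 normalized counts in GFP cells and 599, 607 and 546 in RBFOX1 cells. The GFP libraries were nearly equal, with a coefficient of variation of 1.31%, and even the lowest RBFOX1 library was far above them. The mean rose from 133 ± 1.73 to 584 ± 33.1, or 4.38-fold (log2 fold change 2.13, SE 0.083, edgeR adjusted p = 4.16e-14). Its 3′ UTR held no TGCATG.

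CDKN2D (chr19:10566460-10569059, minus strand), which encodes p19, the remaining INK4 inhibitor of CDK4 and CDK6, had 163, 159 and 164 normalized counts in GFP cells and 230, 240 and 221 in RBFOX1 cells. The mean rose from 162 ± 2.93 to 230 ± 9.42, or 1.42-fold (log2 fold change 0.50, SE 0.092, edgeR adjusted p = 1.27e-04). The step was smaller than that of CDKN2C, and the 95% intervals of the log2 fold changes, 0.31 to 0.69 for CDKN2D and 1.96 to 2.31 for CDKN2C, did not meet.

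CDKN2A (chr9:21967752-21995301, minus strand), which encodes p16 and, in another reading frame, ARF, the inhibitor of MDM2, had 0 reads in all 6 libraries. CDKN2B (chr9:22002903-22009305, minus strand), which encodes p15, likewise had 0 reads in all 6. A total of 3 reads over the 6 libraries, the limit that a count of 0 allows, corresponds to 0.129 normalized counts per kb of exon for CDKN2A and 0.125 for CDKN2B. The mean level over the 6 libraries was 119 normalized counts per kb for CDKN2C (44.02 in GFP cells) and 130 for CDKN2D. For CDKN2C this mean was 923 times the limit for CDKN2A, with all annotated exons as length. The exons of CDKN2A cover 3885 bases and its longest transcript has 1052, so with that length the limit would be higher and the distance smaller. These limits cover counting error only. In GENCODE release 44 no counted gene shared exonic bases with CDKN2A or CDKN2B on their own strand. The reads were counted on an earlier annotation, for which such overlaps were not checked.

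The absence of reads extended well beyond these genes. Within 1 Mb of CDKN2A on either side, 48 of the 58 annotated genes had no read, against 47.2% of all 58051 genes. Of the 22 protein-coding genes there, 17 had no read, against 16.8% of all 19629 protein-coding genes. Most of those 17 were interferon genes. The nearest genes with more than stray reads were KLHL9, an adaptor of a ubiquitin ligase (chr9:21329665-21335404), and DMRTA1, a gene of the doublesex-related family (chr9:22446824-22455740). KLHL9 had 3093, 1630 and 1800 reads in GFP and 727, 1280 and 1487 in RBFOX1 libraries, and DMRTA1 had 109, 36 and 35 against 30, 43 and 81.

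Between KLHL9 and DMRTA1 lay 1111 kb with 32 annotated genes, 31 of them without a read. The exception was KHSRPP1, a processed pseudogene, with 3 reads in all. The genes without a read included MTAP (chr9:21802636-21937651), the methionine salvage enzyme that most cells use and that neighbours CDKN2A, with 0 reads over 13383 exonic bases that it shares with no other gene on its strand. They also included CDKN2A-DT and CDKN2B-AS1, the long non-coding RNAs at the locus, and 6 interferon genes, IFNA6, IFNA13, IFNA2, IFNA8, IFNA1 and IFNE. Most cells do not use the IFNA genes without a stimulus.

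On the far side of KLHL9 the protein-coding genes were HACD4, with 2 reads in all, IFNB1, with 15, IFNA21, with 1, and IFNW1, IFNA4, IFNA7, IFNA10, IFNA16, IFNA17, IFNA14 and IFNA5, each with none. RNA counts do not tell a deleted gene from a silent one, and the DNA of these cells was not analysed here. KLHL9 itself was lower in RBFOX1 cells (log2 fold change -0.47, SE 0.051, edgeR adjusted p = 2.05e-07), and for DMRTA1 the log2 fold change was 0.23 (SE 0.22, adjusted p = 0.414).

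**Figure D2:**
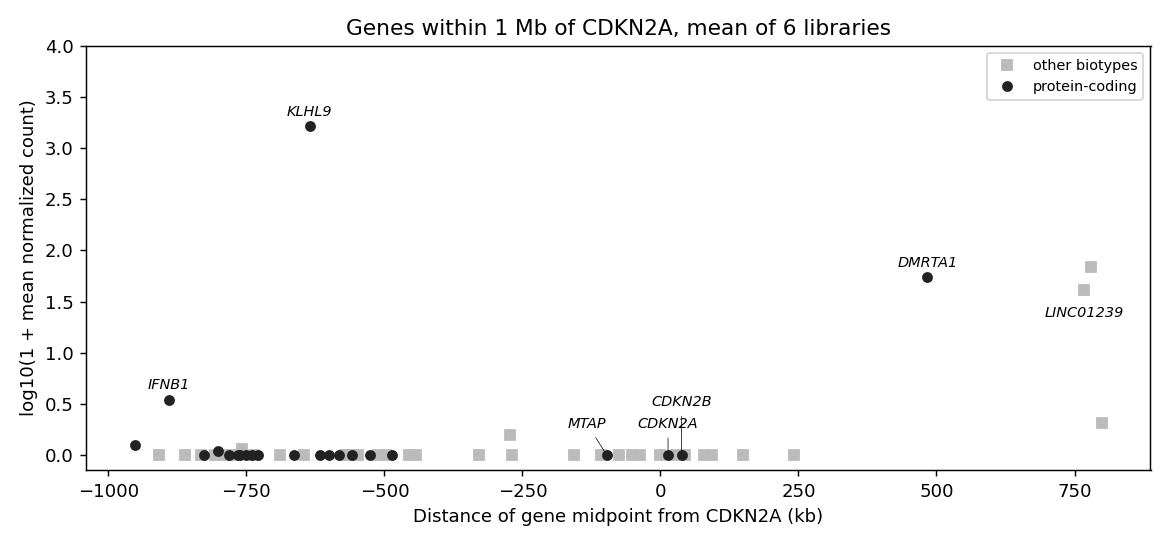
Mean normalized count over the 6 libraries, as log10(1 + count), of the annotated genes within 1 Mb of CDKN2A (y axis), against the distance of each gene's midpoint from the lower end of CDKN2A in kb (x axis), with circles for protein-coding genes and squares for the rest. The genes between KLHL9 and DMRTA1, with CDKN2A, CDKN2B and MTAP among them, lie on or close to 0.

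The pocket protein genes changed little. RB1 (chr13:48303744-48599436, plus strand), the retinoblastoma gene, had 1112, 1223 and 1207 normalized counts in GFP cells and 1302, 1379 and 1321 in RBFOX1 cells. The lowest RBFOX1 library stood just above the highest GFP library. The mean rose from 1180 ± 60.2 to 1334 ± 39.9, or 1.13-fold (log2 fold change 0.18, SE 0.056, edgeR adjusted p = 0.0117). The call was lost when RBFOX1 replicate 2 was left out (log2 fold change 0.16, adjusted p = 0.0546).

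RBL1 (chr20:36996349-37095997, minus strand), which encodes p107, the pocket protein that is itself made in cycling cells, had 469, 471 and 440 normalized counts in GFP cells and 395, 361 and 355 in RBFOX1 cells. All 3 RBFOX1 libraries lay below the GFP libraries. The mean fell from 460 ± 17.1 to 371 ± 21.8, or 1.25-fold (log2 fold change -0.32, SE 0.074, edgeR adjusted p = 0.00114).

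RBL2 (chr16:53433977-53491648, plus strand), which encodes p130, the pocket protein of resting cells and of the DREAM repressor complex, had 1394, 1422 and 1388 normalized counts in GFP cells and 1302, 1359 and 1319 in RBFOX1 cells. The groups did not overlap, yet the difference did not pass the test. The means were 1402 ± 18.2 and 1327 ± 29.1, with a log2 fold change of -0.08 (95% interval -0.19 to 0.03, edgeR adjusted p = 0.239). The interval leaves room for a small decrease.

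RBL1 is a known target of E2F, the factor that pocket proteins bind. RefSeq promoters, 250 bases upstream of each listed start on GRCh38, were searched on both strands for the E2F octamers TTTGGCGC and TTTCCCGC. They were listed for 9 of the 10 genes, in the case of RB1 only at a start inside the gene. Among these genes RBL1 alone held a match, which is why its 60 bases next to the start are shown, with the octamer in capitals, from chr20:37095998-37096057 on the minus strand.
RBL1 upstream: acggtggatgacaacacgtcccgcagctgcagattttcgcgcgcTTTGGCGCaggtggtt
The octamer began 16 bases before the start. Of 34943 promoters, 0.547% held TTTGGCGC and 1.39% held TTTCCCGC, and 1.92% held either.

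With regard to the hexamer, the members that held TGCATG had log2 fold changes of 1.66 (CDKN1B), 0.50 (CDKN2D), 0.18 (RB1) and -0.08 (RBL2). The tested members without it had 2.13 (CDKN2C), 0.95 (CDKN1C), -0.32 (RBL1) and -0.76 (CDKN1A). The ranges overlapped. Only the canonical 3′ UTR was searched, and whether a hexamer bears on the change was not tested.

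No tested member shared exonic bases with another gene on its own strand. On the opposite strand, GPR19 overlapped CDKN1B, RCBTB2 and LPAR6 overlapped RB1, and AKTIP overlapped RBL2. The library kit was stranded and the submitters' names for the count tables give the reverse strand as the setting, though how well this separated such pairs was not tested. GPR19 had at most 13 reads in a library.

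**Figure D3:**
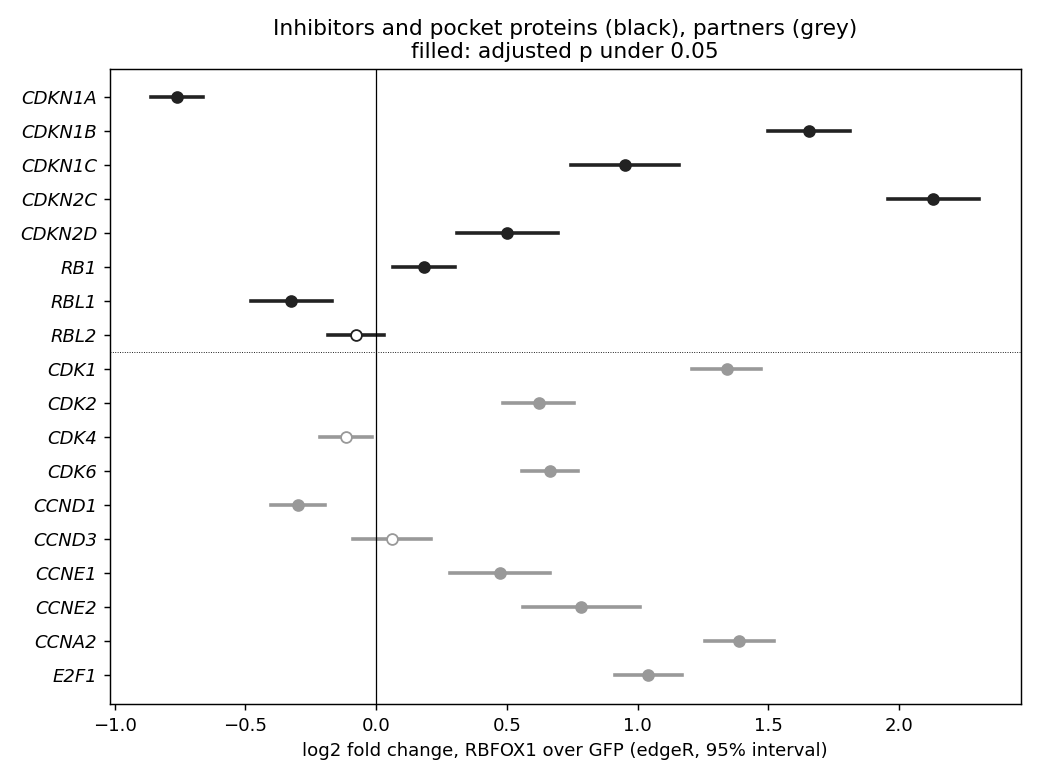
log2 fold change of RBFOX1 over GFP cells (x axis) for the 8 tested members (black) and for their direct partners (grey), as points with lines for the 95% interval, filled where the adjusted p was under 0.05. Among the members the values run from -0.76 for CDKN1A to 2.13 for CDKN2C, and the interval of RBL2 includes 0.

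Levels were compared between genes as normalized counts per kb of exon. In GFP cells CDKN1A stood far above the rest at 3539 ± 115, followed by RB1 at 183.5 ± 9.36 and RBL2 at 173 ± 2.25, whose libraries overlapped. CDKN2D came next at 108 ± 1.95, then RBL1 at 77.25 ± 2.87 and CDKN1C at 71.1 ± 7.64, which overlapped each other, then CDKN2C at 44.02 ± 0.575 and CDKN1B at 24.6 ± 1.65. In RBFOX1 cells CDKN1A was still first at 2087 ± 44.6. CDKN2C moved up to the third place at 193.5 ± 10.98, behind RB1 at 207 ± 6.20 and ahead of RBL2 at 164 ± 3.59. CDKN2D at 153 ± 6.26 and CDKN1C at 138 ± 13.7 overlapped, and CDKN1B at 77.0 ± 2.32 passed RBL1 at 62.2 ± 3.66. The order below CDKN1A and RB1 depended on the length used. With the longest transcript in place of all annotated exons, RBL2 at 209.7 ± 4.63 and CDKN2C at 201 ± 11.4 overlapped in RBFOX1 cells, and CDKN1B, whose exons cover 9255 bases and whose longest transcript has 4335, stood at 52.6 ± 3.51 in GFP cells, above CDKN2C, and at 164 ± 4.95 in RBFOX1 cells, overlapping CDKN1C and CDKN2D.

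Summed per kb, the CIP/KIP genes fell from 3635 ± 119 to 2302 ± 56.7 although 2 of the 3 rose, CDKN1A being the largest part of the sum. The INK4 sum rose from 152 ± 2.34 to 347 ± 16.9, a ratio of 2.28. All inhibitors together went from 3786 ± 119 to 2648 ± 46.0. In each of these sums the groups did not overlap, with an exact permutation p of 0.10 (two-sided), the smallest that 3 against 3 libraries allow (0.127 after Benjamini-Hochberg adjustment over these sums and shares).

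CDKN1A made up 93.5% ± 0.218 of the summed inhibitor level in GFP cells and 78.8% ± 0.633 in RBFOX1 cells. The share of CDKN2C rose from 1.16% to 7.31%, that of CDKN2D from 2.85% to 5.78%, that of CDKN1C from 1.88% to 5.20%, and that of CDKN1B from 0.652% to 2.91%. With the longest transcript as length the last rise was 3.69 rather than 2.26 percentage points. None of these shares overlapped between the groups. The exact permutation p was again 0.10 for each. Shares of 1 sum depend on each other, and a fall of CDKN1A by itself raises the others, so these are not separate results.

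The pocket protein sum was 433.5 ± 10.5 in GFP cells and 433.1 ± 8.12 in RBFOX1 cells (exact permutation p = 1, two-sided). Within it the share of RB1 went from 42.3% ± 1.34 to 47.9% ± 0.663, that of RBL1 from 17.8% ± 0.763 to 14.4% ± 0.956, and that of RBL2 from 39.9% ± 0.625 to 37.8% ± 0.326. For the 3 shares the groups did not overlap, each with an exact permutation p of 0.10. These shares too depend on each other.

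**Figure D4:**
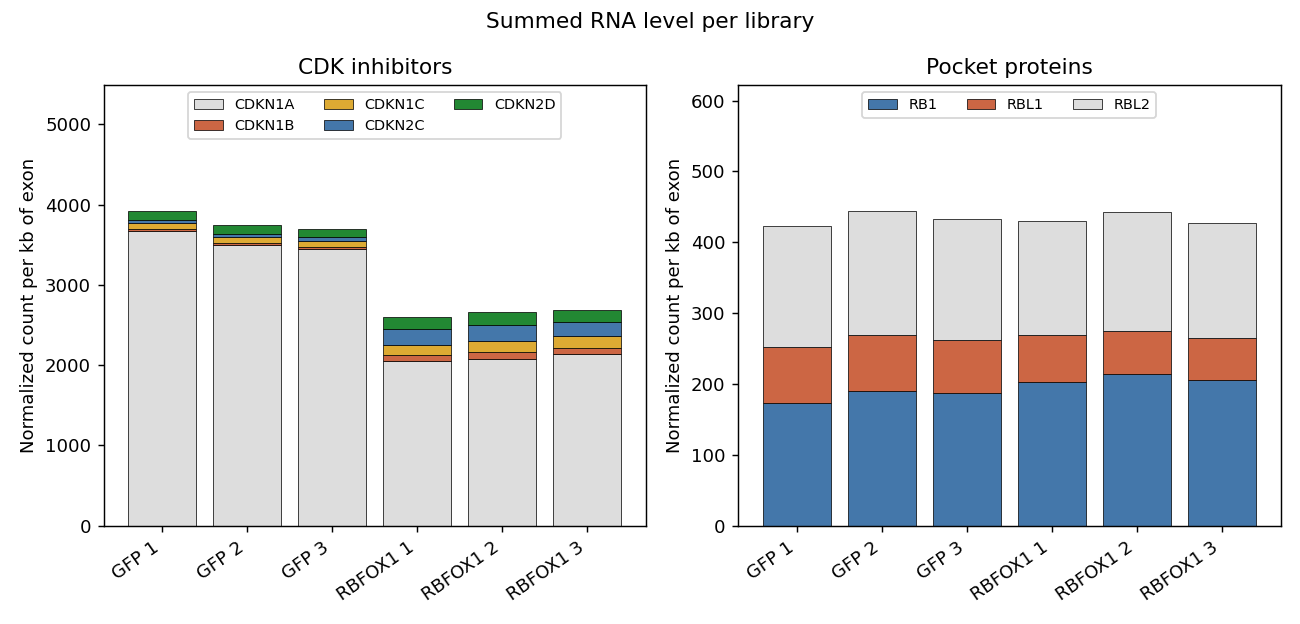
Summed level of the detected CDK inhibitors (left) and of the pocket protein genes (right) in each library, in normalized counts per kb of exon, stacked by gene from 0. The inhibitor sum falls from a mean of 3786 to 2648 with CDKN1A, while the pocket protein sums stay between 423 and 444.

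The kinases that the inhibitors bind did not move as a group. CDK6 rose from 3806 ± 238 to 6038 ± 82.25 normalized counts (log2 fold change 0.67, SE 0.051, edgeR adjusted p = 1.23e-09), and for CDK4, its close relative and the other INK4 target, the log2 fold change was -0.11 (SE 0.047, adjusted p = 0.0544). CDK2, the main CIP/KIP target, rose by 0.62 and CDK1, the mitotic kinase, by 1.34 on the log2 scale.

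The D-type cyclins, which open the way for CDK4 and CDK6, were led by CCND1, which fell from 17060 ± 919.6 to 13870 ± 171 (log2 fold change -0.30, SE 0.049, edgeR adjusted p = 4.30e-05). CCND3 had a log2 fold change of 0.06 (SE 0.071, adjusted p = 0.528), and CCND2 had at most 1 read in a library. The partners of CDK2 rose: CCNE1 by 0.47, CCNE2 by 0.79 and CCNA2 by 1.39 on the log2 scale. Beyond these partners, CCNA1 at 1.51 and the mitotic cyclin CCNB1 at 1.38 changed the most. Of the 16 listed CDK and cyclin genes, 15 were tested, and 9 were higher, 3 lower and 3 not passed. Their median log2 fold change was 0.62 against 0.0051 over all genes tested, of which 23.7% were higher and 22.9% lower.

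E2F1, the activating factor that RB1 binds, rose from 532 ± 24.4 to 1090 ± 36.2 (log2 fold change 1.04, SE 0.062, edgeR adjusted p = 2.61e-11). Across the 10 E2F and DP genes, 4 were higher, 4 lower and 2 not passed, with a median of 0.02. Over all genes tested, 23.7% were higher and 22.9% lower. The extremes were the repressor E2F8 at 2.78, the activator E2F2 at 2.15 and the repressor E2F7 at -1.42. E2F2 and E2F8 were scarce in GFP cells, at 19.0 and 30.8 normalized counts, whereas E2F7 was abundant at 3414.

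The replication genes that E2F activates and pocket proteins repress were mostly higher. Of 17, 15 were higher, PCNA was lower at -0.19 and POLA1 did not pass at 0.14 (median 0.85). Beside this and the next list, the shares over all genes tested were 23.7% higher and 22.9% lower. The largest changes were those of RRM2, a subunit of ribonucleotide reductase, at 2.21, TK1, thymidine kinase, at 2.001, and CDC6, which loads the MCM helicase, at 1.27. The DREAM and MuvB list holds the core subunits that join RBL1 or RBL2 in DREAM, a kinase that promotes its assembly, and the activators MYBL2 and FOXM1, and of its 8 genes 5 were higher, 1 lower and 2 not passed (median 0.38). The lower one was LIN52 at -0.42 (edgeR adjusted p = 0.00828), a call that DESeq2 did not make (adjusted p = 0.0959), and without GFP replicate 1 there were 2. MYBL2 rose by 2.31, FOXM1 by 1.10 and LIN9 by 0.79 on the log2 scale. The first is an activator that takes over the MuvB core from DREAM, the second a mitotic activator, and the third a core subunit. These changes stood beside higher CDKN1B, CDKN1C, CDKN2C and CDKN2D and lower CDKN1A RNA in the same libraries.

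The proteins p27 and p21 are removed by the ubiquitin ligases SCF-SKP2 and CRL4-DTL. Of 9 genes of these ligases, 5 were higher, 2 lower and 2 not passed (median 0.20). Over all genes tested, 23.7% were higher and 22.9% lower. The most changed were CUL4B, a scaffold, at 1.46, CKS1B, the cofactor of SKP2 for p27, at 1.05, and DTL, the receptor for p21, at 0.60. CUL4B thus rose 2.75-fold and CKS1B 2.07-fold at the RNA level. The 2 lower genes were the other scaffolds, CUL4A at -0.30 and CUL1 at -0.29. Per kb of exon, CUL4A went from 307 to 248 normalized counts and CUL4B from 26.6 to 73.0. Protein was not measured.

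Of 22 transcriptional regulators of the inhibitor genes, 9 were higher, 4 lower and 9 not passed (median -0.03). Over all genes tested, 23.7% were higher and 22.9% lower. Without RBFOX1 replicate 1 the number lower was 2. FOXO3, an activator of CDKN1B, rose by 1.19, EZH2, the Polycomb methyltransferase that silences CDKN2A, by 1.07, and MYC, a repressor of CDKN1A and CDKN2B, by 1.01 on the log2 scale.

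**Figure D5:**
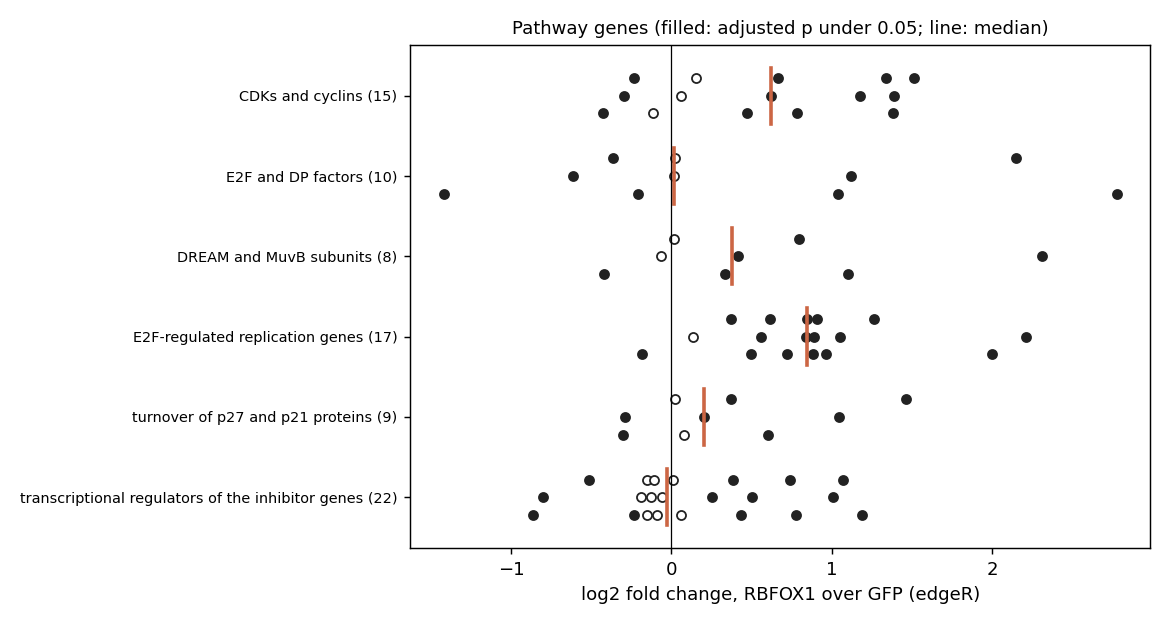
log2 fold change of RBFOX1 over GFP cells (x axis) for each tested gene of 6 lists (y axis, number tested in brackets), as circles filled where the adjusted p was under 0.05, with a line at the list's median. The replication genes have the highest median, 0.85, and the E2F and DP factors spread the widest, from -1.42 to 2.78.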

How the data were processed

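Total RNA of A172 cells was depleted of ribosomal RNA, made into stranded libraries and sequenced as paired ends. Reads were mapped by the authors with HISAT2, on genome build GRCh38, and the raw counts per Ensembl gene that they deposited came from HTSeq-count in its intersection-strict mode (HISAT2, HTSeq and DESeq2 are also named in the submitters' processing notes). A second deposited table, the authors' DESeq2 means, fold changes and p-values, was not used. Reads on no gene (6.61% to 8.74% of a library), on several genes (6.89% to 9.35%), of low alignment quality (16.8% to 27%) or not aligned (4.64% to 7.46%) are tallied in the count files and stayed out.

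The 10 genes and all gene lists were chosen with earlier results of these data known. From the counts, edgeR 4.0.16 (R 4.3.3) fitted TMM-scaled libraries with condition as the only term, and its quasi-likelihood test was run on the 20536 genes with at least 10 reads over the 6 libraries, with Benjamini-Hochberg adjustment at 0.05. Standard errors and 95% intervals come from that fit. The common biological coefficient of variation was 0.0542. Exact permutation tests over libraries were two-sided. The edgeR and DESeq2 fits were tested on simulated counts. Named genes were the 10 members, their direct partners whatever their values, the genes around CDKN2A and the genes overlapping a member by position. In each other list up to 3 genes past the threshold were named, with the largest log2 change and a mean of at least 50 normalized counts. Some genes that went against the rest of their list were named too. Alternatives were other scalings, other filters on low counts, DESeq2 1.42.0, a block on the replicate number, the longest transcript as the length and leaving out each library. Gene positions, exon lengths and 3′ UTRs were taken from GENCODE release 44 on GRCh38, which is later than the annotation used for counting. Protein sequences were not analysed here.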

Additional observations from a re-analysis of the deposited data

How the results depend on the processing

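Over 13 alternatives, 5 members were higher and 2 lower, except without RBFOX1 replicate 2, when 4 were higher and RB1 was lost. No tested member changed sign; the log2 fold change of CDKN1A lay between -0.78 and -0.71, that of CDKN1B between 1.59 and 1.71, that of CDKN2C between 2.10 and 2.19, that of RB1 between 0.14 and 0.23 and that of RBL2 between -0.10 and -0.03. Same-numbered libraries did not deviate together (correlations of -0.026, 0.016 and 0.0065). These values gave no sign of a pairing by number and cannot exclude one. The fit with a replicate block called 4588 genes higher and 4458 lower, against 4869 and 4711, with 5 members higher and 2 lower (RB1 0.18, adjusted p = 0.0214). Of 208 counts of calls, 205 stayed within 1.5 times. The number of DREAM and MuvB genes lower was 0 with DESeq2 (1 at an unadjusted p under 0.05, LIN52 with adjusted p = 0.0959) against 1 with edgeR, and 1 to 2 with a library left out, where 2 came without GFP replicate 1. The number of regulators lower was 2 to 4 with a library left out, where 2 came without RBFOX1 replicate 1. Medians near 0 changed sign: that of the E2F and DP factors was -0.0051 with upper-quartile scaling and -0.0117 to 0.0738 with a library left out, and that of the regulators was 0.0245 with library totals and -0.0468 to 0.0226 with a library left out. CDK4 passed with upper-quartile scaling (-0.14, adjusted p = 0.0228), and CCND3 ranged from -0.0049 to 0.12 with a library left out. With the longest transcript as length the difference in summed level was -1722 for CIP/KIP and -1518 for all inhibitors, and the shares of CDKN1B, CDKN2C and CDKN2D rose by 3.69, 4.89 and 2.39 percentage points. With library totals these sums differed by -1230 and -1026, and the pocket protein sum by 15.3. The cause of these changes was not tested. Depth limits the genes at 0, for which only a bound can be given, and at 3 libraries a group the exact test allows no p under 0.10.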
